A study of Sus scrofa with 4 samples.

Results

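The sirtuin family of porcine oocytes at metaphase II (M II) is described here by its 7 transcripts, SIRT1 to SIRT7. The rows carrying these symbols were taken from the table of read counts, so that the family makes up 7 of the 4381 genes listed. Sirtuins are enzymes that remove acetyl or longer acyl groups from lysine residues and use up NAD+ with each group removed. They are set apart by where they work, with SIRT1, SIRT6 and SIRT7 in the nucleus, SIRT2 mainly in the cytosol, and SIRT3, SIRT4 and SIRT5 in mitochondria. A fully grown oocyte makes little new RNA, and a transcript measured at M II is part of a store laid down earlier and then kept, translated or degraded during maturation.

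The study asked which transcripts differ when SIRT6 activity is blocked during maturation in vitro. Control oocytes were matured for 42 to 44 h, and SIRT6-inhibited oocytes were matured for the same time with 100 μM SIRT6-IN-1, a compound that enters cells and blocks the enzyme and is not aimed at its transcript. Each group had 2 libraries. Cumulus cell–oocyte complexes were aspirated from abattoir ovaries, and 100 oocytes were collected per group without a statement of how many entered each library or from how many animals. Nothing in the sources says that libraries of a group came from separate cultures or animals. The p-values below therefore rest only on the spread between these samples, estimated in part over other genes, and that spread may be technical. The labels name Smart-seq2 amplification before a random-primed library, and the study's methods name column extraction of RNA. Counts on the listed genes totalled 4646129 in control library 1, 3405960 in control library 2, 3239200 in SIRT6-inhibited library 1 and 4972602 in SIRT6-inhibited library 2. At these totals 3 counts, taken here as the floor under which a transcript is not told from 0, equal 0.646 and 0.881 CPM (the count as a share of the total, scaled to the same sum in each library) for the controls, against 0.926 and 0.603 CPM for the SIRT6-inhibited libraries. Intervals and floors cover counting error only, as reads copied by amplification do not stand for separate molecules.

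Markers of the oocyte were present in every library. Of 20 oocyte markers, 14 were listed and all 14 had at least 3 counts in all 4 libraries, with a summed level of 119699 and 123154 CPM in the controls, against 122605 and 122824 CPM in the SIRT6-inhibited libraries. WEE2, an oocyte kinase, was the most abundant of them. Of 21 cumulus and granulosa cell markers, 17 were listed, 5 of these (AMH, AREG, FSHR, LHCGR and TNFAIP6) were at 0 in all 4 libraries, and 3 had at least 3 counts in every library. Their summed level was 202 and 236 CPM in the controls, against 101 and 199 CPM in the SIRT6-inhibited libraries, led by VCAN, a matrix proteoglycan, with 383, 485, 125 and 683 counts in that order. By this sum SIRT6-inhibited library 1 was the low one, and SIRT6-inhibited library 2 lay close to control library 1. The difference between the SIRT6-inhibited libraries rests on VCAN. Of the 7 markers tested singly, 6 were lower under inhibition and 1 was higher, with 0 at an unadjusted edgeR p-value under 0.05. In pooled RNA the number of cumulus cells and the RNA in each cannot be told apart. The listed blood and immune markers (3 of 6: HBB, CD74 and TYROBP) were at 0 throughout.

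Sirtuin transcripts together took a like part of each library. Their summed level was 444 and 447 CPM in the controls, against 445 and 480 CPM under inhibition, from 2061, 1522, 1441 and 2387 reads. Reads on nuclear sirtuins made up 68.4% (exact Clopper-Pearson 95% interval 66.4 to 70.4) and 62.2% (59.7 to 64.7) of these in the controls, against 76.3% (74.1 to 78.5) and 67.5% (65.6 to 69.4) in the SIRT6-inhibited libraries. Mitochondrial sirtuins had 30.4% (28.4 to 32.4) and 36.1% (33.7 to 38.6) of sirtuin reads in the controls and 23.0% (20.9 to 25.3) and 32.0% (30.2 to 33.9) under inhibition. In every library the nuclear members held most of the sirtuin reads, and for both shares the groups overlapped. SIRT2, the cytosolic member, had 1.21% (0.786 to 1.79) and 1.64% (1.07 to 2.42) of them in the controls and 0.625% (0.286 to 1.18) and 0.461% (0.230 to 0.823) under inhibition. These are shares of reads, and a longer transcript gives more reads.

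Of the 7 sirtuins, 5 had at least 3 counts in all 4 libraries, SIRT6 had them in 3 libraries and SIRT5 in 1. Ordered by reads and not by transcript number, since transcript lengths were not used here, the mean over the 4 libraries was 250.3 normalized CPM (CPM on totals scaled by edgeR's TMM factors) for SIRT1. The next were SIRT4 at 69.8, SIRT3 at 67.5 and SIRT7 at 51.8 normalized CPM, followed by SIRT6 at 9.96, SIRT2 at 4.38 and SIRT5 at 0.845. The lowest SIRT1 library lay above the highest SIRT4 library, and the lowest SIRT7 library above the highest SIRT6 library. Within the middle group of SIRT4, SIRT3 and SIRT7, and within the low group of SIRT6, SIRT2 and SIRT5, the ranges of neighbours overlapped, so their order was not larger than the spread between libraries. SIRT1 had the most sirtuin reads in each of the 4 libraries, from 44.02% (95% interval 41.5 to 46.6) in control library 2 to 61.1% (58.5 to 63.6) in SIRT6-inhibited library 1.

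**Figure D1:**
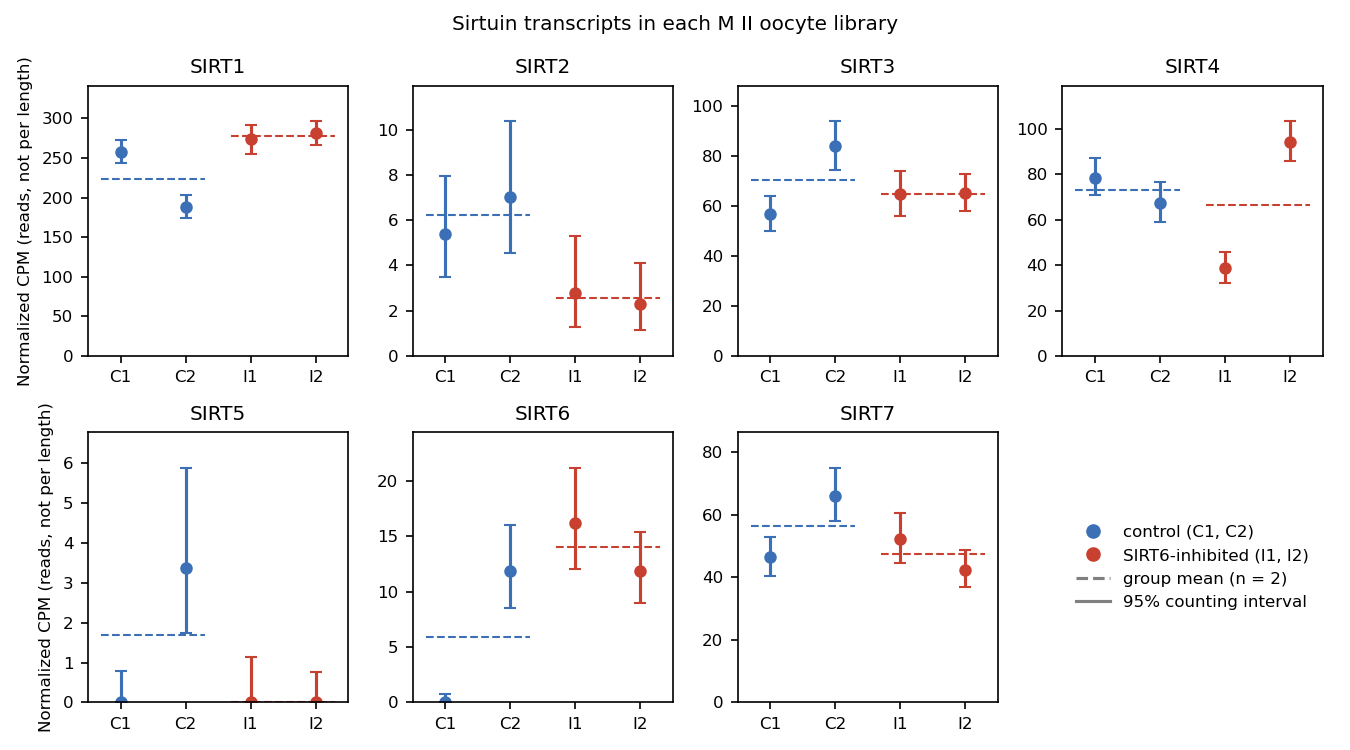
Normalized CPM (vertical axis, a separate scale per gene, reads not divided by length) of each sirtuin in control libraries (C1, C2, blue) and SIRT6-inhibited libraries (I1, I2, red), with bars for the 95% counting interval and dashed lines for the group mean of 2 libraries. SIRT6 was at 0 in C1 and between 11.8 and 16.2 in the other 3 libraries, and SIRT2 was lower in I1 and I2 than in C1 and C2.

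SIRT6, the target of the inhibitor, is a chromatin-bound deacetylase of histone tails with roles in DNA repair, telomere upkeep and the repression of glycolytic genes. Its gene lies on chromosome 2 from 74568539 to 74577774 (RefSeq on Sscrofa11.1, the assembly that UCSC calls susScr11). Read counts were 0 in control library 1, 42 in control library 2, 52 in SIRT6-inhibited library 1 and 57 in SIRT6-inhibited library 2, equal to 0, 11.8, 16.2 and 11.9 normalized CPM. Control library 1 alone lacked the transcript, while control library 2 lay next to SIRT6-inhibited library 2. The CPM of these 2 libraries had overlapping counting intervals, 8.89 to 16.7 in control library 2 and 8.68 to 14.9 in SIRT6-inhibited library 2. In control library 1 the 0 allows up to 0.794 CPM at the 95% limit. The groups did not overlap after TMM or RLE scaling, but they overlapped with library totals alone and with the 10 most abundant genes left out. Means were 5.91 ± 8.36 normalized CPM in control oocytes, against 14.0 ± 3.03 in inhibited ones (SD, n = 2 each). The log2 fold change was 1.25 with a standard error of 1.95 and a 95% interval of -3.41 to 5.91 (edgeR quasi-likelihood test with Benjamini-Hochberg adjustment, adjusted p = 0.980). No difference in SIRT6 was detectable at this spread. With a replicate block the log2 fold change was 3.30, and 3.26 with the replicate numbers crossed, neither past the threshold. Without control library 1 the log2 fold change was 0.24 (edgeR adjusted p = 0.997). Without control library 2 the control was a single library at 0, with an unadjusted p of 0.0209 and an adjusted p of 0.950 from edgeR's quasi-likelihood test. Over the 11 alternatives that gave SIRT6 a value, its adjusted p ranged from 0.824 to 0.9996.

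The gap between the control libraries was larger than the gap between the group means. Control library 2 was at least 18.3-fold higher than the 3-count floor of control library 1, and the mean of the SIRT6-inhibited libraries was at least 21.6-fold higher than that floor. The difference between control libraries on the log2(normalized CPM + 1) scale was 3.68 for SIRT6, above that of 98.7% of tested genes, whose median was 0.39. Other genes were also missing from a single library. Counting genes at 0 in 1 library and with at least 10 reads in each of the other 3, there were 42 for control library 1, SIRT6 among them, 8 for control library 2, and 81 and 65 for SIRT6-inhibited libraries 1 and 2. With at least 40 reads required in each of the others, 2 genes remained for control library 1 (SIRT6 and YKT6), 0 for control library 2, and 7 and 9 for the SIRT6-inhibited libraries. Genes missing from a single library were thus found in both groups, and which SIRT6-inhibited library had more of them depended on the number of reads required. The source of the 0 for SIRT6 in control library 1 was not tested.

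**Figure D2:**
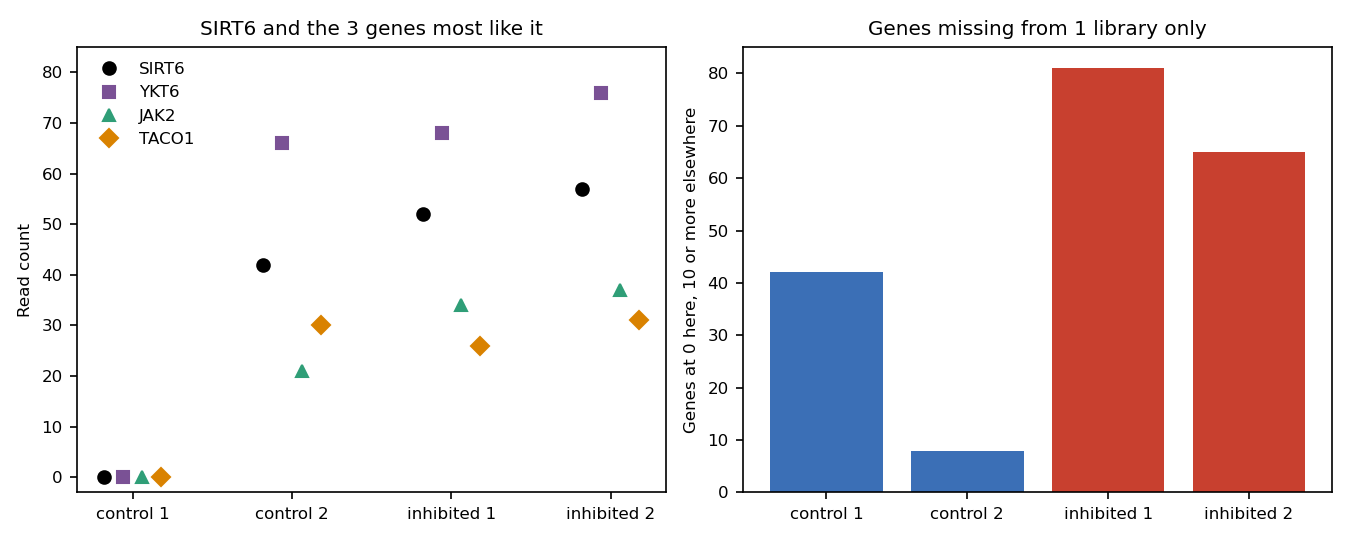
Left, read counts of SIRT6 and of the 3 tested genes with the pattern nearest to it (YKT6, JAK2 and TACO1) in the 4 libraries; right, the number of genes at 0 in the library named and with at least 10 reads in each of the other 3 (blue, control; red, SIRT6-inhibited). All 4 genes on the left were at 0 in control library 1, and 42, 8, 81 and 65 genes were missing from a single library.

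The 3 tested genes closest to SIRT6 over the 4 libraries, by the mean absolute difference of centred log2(normalized CPM + 1), were YKT6 (0.171), JAK2 (0.253) and TACO1 (0.316). YKT6 is a membrane fusion protein of the SNARE family and had 0, 66, 68 and 76 counts. JAK2, a cytokine receptor kinase, had 0, 21, 34 and 37 counts. TACO1, a translational activator of mitochondrial cytochrome c oxidase, had 0, 30, 26 and 31 counts. With 4 libraries this likeness is mainly a shared 0 in control library 1.

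SIRT1 deacetylates histones and transcription factors such as p53 and the FOXO proteins, and lies on chromosome 14 from 71091167 to 71126351. Its read counts, 1195 and 670 in the controls against 880 and 1350 in the SIRT6-inhibited libraries, equal 258, 189, 273 and 281 normalized CPM. Control library 2 was the low one, and control library 1 came close to the SIRT6-inhibited libraries. The groups did not overlap with any of the 4 scalings tried. The mean was 223 ± 49.1 normalized CPM in control oocytes, against 277 ± 5.49 in inhibited ones (SD, n = 2 each), and the log2 fold change was 0.31 (standard error 0.22, 95% interval -0.20 to 0.83). This was not past the threshold (edgeR quasi-likelihood test, Benjamini-Hochberg adjusted p = 0.806), and the interval included 0. Without control library 2 the log2 fold change was 0.10, and without control library 1 it was 0.55 (edgeR adjusted p = 0.998 and 0.898). With the other alternatives included, its adjusted p lay between 0.679 and 0.9996.

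The tested genes nearest to SIRT1 by the same measure were FZR1 (0.0245), GOT2 (0.0335) and ERLIN2 (0.0356). FZR1, an activator of the anaphase-promoting complex, had 316, 181, 224 and 356 counts. GOT2, the mitochondrial aspartate aminotransferase, had 2059, 1213, 1629 and 2483 counts, and ERLIN2, an endoplasmic reticulum membrane protein, had 1848, 1136, 1409 and 2176. Like SIRT1, each was lowest, relative to the scaled totals, in control library 2.

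SIRT7, a nucleolar deacylase that promotes transcription of ribosomal RNA genes, lies on chromosome 12 from 1078155 to 1084112. It had 215 and 235 counts in the controls, against 168 and 204 in the SIRT6-inhibited libraries, which are 46.4, 66.2, 52.2 and 42.5 normalized CPM. Control library 2 was high, and the remaining control library lay between both SIRT6-inhibited libraries. The means of 56.3 ± 14.0 and 47.3 ± 6.86 normalized CPM (SD, n = 2 each) gave a log2 fold change of -0.25 (standard error 0.42, 95% interval -1.25 to 0.75, edgeR quasi-likelihood adjusted p = 0.980). Without control library 2 it was 0.023, so its sign rested on that library.

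SIRT2 removes acetyl groups from tubulin and other cytosolic proteins and lies on chromosome 6 from 47682427 to 47703408. It had 25 reads in each control library and 9 and 11 reads in SIRT6-inhibited libraries 1 and 2, or 5.40, 7.04, 2.80 and 2.29 normalized CPM. Both SIRT6-inhibited libraries were below both controls with each of the 4 scalings. The CPM intervals of counting error were 3.48 to 7.94 and 4.75 to 10.8 in the controls and 1.27 to 5.27 and 1.10 to 3.96 under inhibition. The nearest libraries of the groups were thus within counting error of each other. The intervals of control library 2 and SIRT6-inhibited library 2 did not overlap. SIRT2 passed the filter on low counts with 3 of 4 libraries at or above its cutoff of 2.48 CPM, and the library under it was a SIRT6-inhibited one. The means were 6.22 ± 1.16 and 2.54 ± 0.357 normalized CPM (SD, n = 2 each), and the log2 fold change was -1.28 with a standard error of 1.71 and a 95% interval of -5.36 to 2.80. The difference was not past the threshold (edgeR quasi-likelihood test, Benjamini-Hochberg adjusted p = 0.969), nor was it under any alternative. That interval rests on a spread fitted over genes of like abundance. On the log2(normalized CPM + 1) scale SIRT2 itself differed by 0.33 between the controls, where the median of tested genes was 0.39. Between the SIRT6-inhibited libraries it differed by 0.21, where the median was 0.44. The direction held with each library left out in turn, from -1.47 to -1.08.

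SIRT3, the main deacetylase of the mitochondrial matrix, lies on chromosome 2 from 38465 to 55074. Its counts were 262 and 298 in the controls, against 208 and 312 in the SIRT6-inhibited libraries, at 56.6, 83.9, 64.6 and 65.0 normalized CPM. The SIRT6-inhibited libraries were nearly equal and lay between the controls. The log2 fold change was -0.11 (standard error 0.34, 95% interval -0.94 to 0.71, edgeR quasi-likelihood adjusted p = 0.989) between means of 70.2 ± 19.3 and 64.8 ± 0.254 normalized CPM (SD, n = 2 each). Without control library 2, the high one, it was 0.19.

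SIRT4, a mitochondrial lipoamidase and ADP-ribosyltransferase that restrains pyruvate and glutamate dehydrogenase, lies on chromosome 14 from 40290288 to 40303887. Its counts were 364 and 240 in the controls, against 124 and 453 in the SIRT6-inhibited libraries, which are 78.6, 67.6, 38.5 and 94.3 normalized CPM. The SIRT6-inhibited libraries held both the lowest and the highest value, and the controls lay between them. Counting error does not span that gap, with intervals of 31.8 to 45.6 CPM in SIRT6-inhibited library 1 and 82.9 to 99.9 CPM in SIRT6-inhibited library 2. On the log2(normalized CPM + 1) scale these libraries differed by 1.27, more than for 76.0% of tested genes, whose median was 0.44. SIRT6-inhibited library 1 also had the lowest summed level of cumulus and granulosa markers. Its gap from SIRT6-inhibited library 2 rests on VCAN. Of the other markers INHBA and SERPINE2, among others, were below the controls in both SIRT6-inhibited libraries, and CYP11A1 was above them in both. HSD3B1, with 9 and 8 counts in the controls, had 58 in SIRT6-inhibited library 1 and 0 in SIRT6-inhibited library 2. With at least 10 reads required elsewhere, 81 genes were missing from SIRT6-inhibited library 1 alone, against 65 for SIRT6-inhibited library 2 (7 against 9 with 40 reads required). The part of the markers or of the missing genes in the SIRT4 value was not tested. The group means of 73.1 ± 7.80 and 66.4 ± 39.5 normalized CPM (SD, n = 2 each) gave a log2 fold change of -0.13 (standard error 0.46, 95% interval -1.24 to 0.98, edgeR quasi-likelihood adjusted p = 0.992). The sign depended on which SIRT6-inhibited library was kept, at 0.36 without library 1 and -0.93 without library 2 (edgeR adjusted p = 0.831 and 0.576, in a range of 0.576 to 0.9996 over 12 alternatives).

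SIRT5, which removes succinyl, malonyl and glutaryl groups from mitochondrial and other proteins, lies on chromosome 7 from 9951024 to 9968004. It had 12 reads in control library 2, a level of 3.52 CPM (95% counting interval 1.82 to 6.15), and 0 in the other 3 libraries. The transcript was thus found in a single control library, at least 5.22-fold above the floor of the other one. With at least 10 reads in control library 2 and 0 elsewhere there were 90 genes, SIRT5 among them. The like number was 51 for control library 1, and 38 and 35 for SIRT6-inhibited libraries 1 and 2. It did not pass the filter on low counts and was not tested. At a count of 0 the 95% limits were 0.794 CPM in control library 1 and 1.14 and 0.742 CPM in the SIRT6-inhibited libraries.

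Read across the family, 6 of 7 sirtuins passed the filter on low counts, and 0 of these 6 passed at an adjusted p-value of 0.05 with edgeR's quasi-likelihood test, beside 0% of all 2387 genes tested. An unadjusted p-value under 0.05 was also found for 0 of the 6, beside 216 genes or 9.05% of those tested, while DESeq2's Wald test gave 37 genes an adjusted p-value under 0.05 and 0 sirtuins. Of the tested sirtuins 2 were higher (SIRT1 and SIRT6) and 4 lower (SIRT2, SIRT3, SIRT4 and SIRT7) in SIRT6-inhibited oocytes with each of the 4 scalings, with a median log2 fold change of -0.12, beside -0.039 over all tested genes, of which 1126 were higher and 1261 lower. Groups were without overlap for 3 of the 6 (SIRT1, SIRT2 and SIRT6, the last depending on the scaling), beside 40.1% of tested genes, and SIRT2 alone was lower without overlap, beside 22.2%. These counts lie near the background and are no result about the family. Precision differed widely among members. The biological coefficient of variation is the spread between libraries of a group relative to the mean, here fitted over genes of like abundance. It was 0.198 for SIRT1, between 0.322 and 0.403 for SIRT3, SIRT4 and SIRT7, 1.05 for SIRT6 and 1.38 for SIRT2, beside 0.651 as the common value of all genes. These values follow abundance and are not each member's own spread. The members with few reads were those with the widest intervals.

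**Figure D3:**
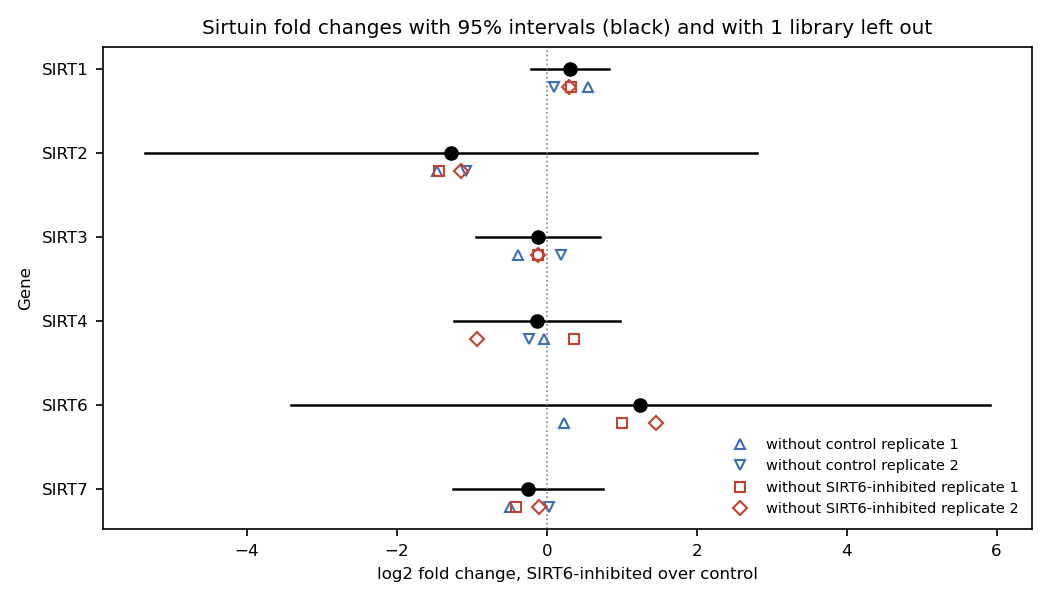
Log2 fold change of each tested sirtuin, SIRT6-inhibited over control (horizontal axis), with its 95% interval (black), and the value with 1 library left out (open symbols: blue, a control library; red, a SIRT6-inhibited library). Every interval crosses 0, and SIRT3, SIRT4 and SIRT7 have a value on the other side of 0; SIRT6 without control library 2 is not drawn because its control was then at 0.

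Genes around the family were described from lists by role, and 0 of the genes tested in these lists had an adjusted edgeR p-value under 0.05. Of 23 NAD+ synthesis and transport genes, 5 were listed and 3 tested, 2 higher and 1 lower with 0 at an unadjusted p-value under 0.05, beside 9.05% of all tested genes, and a median log2 fold change of 0.21. NAMPT, the rate-limiting enzyme that recycles the nicotinamide released by sirtuins, had 557 and 591 counts in the controls, against 571 and 957 in the SIRT6-inhibited libraries, with a log2 fold change of 0.40 (edgeR adjusted p = 0.754), which was 0.17 without control library 1 and 0.64 without control library 2. SLC25A51, which carries NAD+ into mitochondria where SIRT3 to SIRT5 act, had 4047, 3043, 3064 and 5052 counts in the same order and a log2 fold change of 0.21 (edgeR adjusted p = 0.696). The groups did not overlap for either gene, 2 of the 3 tested, beside 40.1% of all tested genes, and neither was past the threshold. Of 19 genes of enzymes that compete with sirtuins for NAD+ or clear nicotinamide, 3 were listed and 0 tested. PARP1 was not among the 19. CD38 had 15 reads in SIRT6-inhibited library 1 and 0 elsewhere, and AOX1 and NNMT were at 0.

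Of 12 sirtuin regulators, 5 were listed and 4 tested, 2 higher and 2 lower, with 1 in each direction at an unadjusted p-value under 0.05, beside 9.05% of all tested genes, and a median log2 fold change of 0.068. CCAR2, a protein that binds and inhibits SIRT1, had 252 and 183 counts in the controls, against 375 and 381 in the SIRT6-inhibited libraries. Both SIRT6-inhibited libraries were above both controls, at 97.9 ± 26.3 against 53.0 ± 2.05 normalized CPM (SD, n = 2 each). The log2 fold change was 0.88 with a standard error of 0.34, at an unadjusted p of 0.0351 and an adjusted p of 0.512 in edgeR's quasi-likelihood test. With each library left out in turn it ranged from 0.58 to 1.13, and an unadjusted p-value under 0.05 was kept in 8 of 12 alternatives, with adjusted p from 0.238 to 0.950. ELAVL1, an RNA-binding protein that stabilizes SIRT1 mRNA, was the most abundant regulator, with a log2 fold change of 0.16 (edgeR adjusted p = 0.905).

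Of 38 nuclear and cytosolic substrates of sirtuins, 14 were listed and 13 tested, 11 higher and 2 lower, with a median log2 fold change of 0.20, beside 1126 higher and 1261 lower and a median of -0.039 over all tested genes. The list was not tested as a set. The gene with an unadjusted p-value under 0.05, 1 of 13 beside 9.05% of all tested genes, was LDHA, a lactate dehydrogenase subunit whose gene SIRT6 represses and whose protein SIRT2 deacetylates. It had 152 and 371 counts in the controls, against 57 and 47 in the SIRT6-inhibited libraries, a mean of 68.6 ± 50.6 against 13.7 ± 5.60 normalized CPM (SD, n = 2 each). Both SIRT6-inhibited libraries were below both controls, with control library 2 far above the rest. The log2 fold change of -2.32 (standard error 0.71) had an unadjusted p of 0.0148 and an adjusted p of 0.469 in edgeR's quasi-likelihood test, and it was -1.26 without control library 2. Its adjusted edgeR p was 0.0248 with no filter on low counts and 0.00285 without SIRT6-inhibited library 1, the lowest of 12 alternatives that reached up to 0.976. In the latter fit the spread came from the control libraries alone, and the lone SIRT6-inhibited library was assumed to vary like them. The most abundant of these genes were TUBA1B, an alpha-tubulin of the kind SIRT2 deacetylates (log2 fold change 0.11, edgeR adjusted p = 0.956, and -0.0071 without SIRT6-inhibited library 1), and CDC20, an activator of the anaphase-promoting complex (0.20, edgeR adjusted p = 0.652). Reads of TUBA1B and LDHA can be shared with near-identical tubulin genes or LDHA copies, which makes their counts uncertain.

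Of 32 mitochondrial substrates, 18 were listed and 15 tested, 6 higher and 9 lower with 0 at an unadjusted p-value under 0.05, beside 9.05% of all tested genes, and a median log2 fold change of -0.024. The most abundant were MDH2, the malate dehydrogenase that SIRT3 deacetylates, with a log2 fold change of 0.13, and GLUD1, the glutamate dehydrogenase on which SIRT3 and SIRT4 act, with 0.019 (edgeR adjusted p = 0.939 and 0.992), which turned to -0.038 with library totals alone. With each library left out, MDH2 ranged from 0.0091 to 0.23 and GLUD1 from -0.078 to 0.11. Of 11 classical, zinc-dependent histone deacetylases, the other family of lysine deacetylases, HDAC3 alone was listed, with 3074 and 2014 counts in the controls, against 1892 and 2930 in the SIRT6-inhibited libraries (log2 fold change -0.039, edgeR adjusted p = 0.992, and 0.071 without control library 1).

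**Figure D4:**
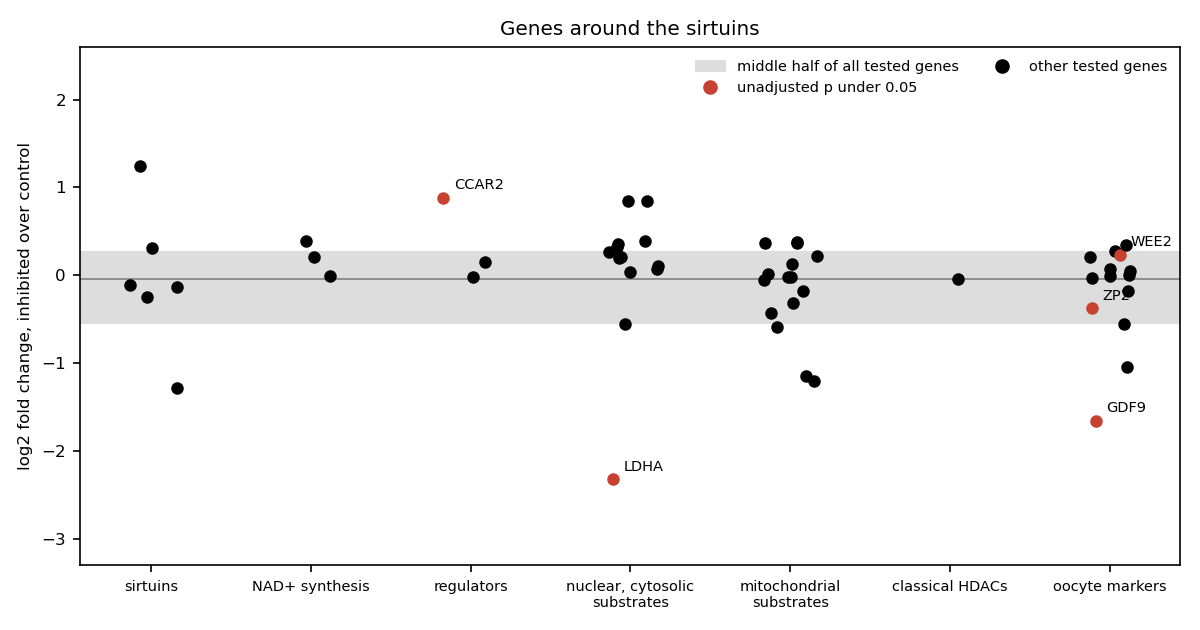
Log2 fold change, SIRT6-inhibited over control (vertical axis), of the tested genes of each list (horizontal axis; points are spread sideways to be seen), with genes at an unadjusted p-value under 0.05 in red and named, and the grey band holding the middle 50% of all tested genes. The 6 sirtuins lie between -1.28 and 1.25, none of them red, and 1 regulator is not drawn.

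Among the markers used to check the cells, 14 oocyte markers were tested, 7 higher and 7 lower, with a median log2 fold change of -0.0017. By edgeR's quasi-likelihood test 1 was higher and 2 were lower at an unadjusted p-value under 0.05, beside 9.05% of all tested genes in either direction. They were WEE2 at a log2 fold change of 0.23 (edgeR adjusted p = 0.487), ZP2, a zona pellucida protein, at -0.37 (edgeR adjusted p = 0.510), and GDF9, an oocyte growth factor, at -1.65 (edgeR adjusted p = 0.469). Among 12 alternatives an adjusted p-value under 0.05 was reached in 5 by GDF9, in 1 by WEE2 and in 0 by ZP2, and the highest adjusted p of each was 0.950. For GDF9 the fits under 0.05 included both with a replicate block, at edgeR adjusted p-values of 0.00398 with the numbers as given and 0.00393 with them crossed. The log2 fold change of GDF9 was -2.46 without SIRT6-inhibited library 1 and -0.95 without control library 2. That of ZP2 ranged from -0.533 to -0.235 with each library left out in turn. KPNA7, an oocyte importin, was next in abundance to WEE2, at a log2 fold change of 0.070, which ranged from 0.00057 without control library 2 to 0.13 without control library 1. Of 7 tested cumulus and granulosa markers 1 was higher and 6 were lower, with a median of -0.82, 0 at an unadjusted p-value under 0.05 and 5 without overlap, beside 40.1% without overlap among all tested genes. Of these 5, 4 were lower and 1 was higher. The higher one was CYP11A1, a steroid-producing enzyme, with 0 and 9 counts in the controls and 13 and 56 under inhibition. Among the lower ones PTGS2, the prostaglandin synthase of expanding cumulus, had 22 and 12 counts in the controls and 0 under inhibition, and passed the filter on low counts through the controls alone. VCAN had a log2 fold change of -0.27, which was 0.37 without SIRT6-inhibited library 1 and 0.13 without control library 2, and INHBA, an activin subunit with 161, 95, 62 and 102 counts, one of -0.60.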

How the data were processed

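The authors deposited whole-number counts of reads by gene symbol, not normalized. The submitters' processing notes name TopHat2 2.0.13, Cufflinks 2.2.1, Cuffnorm and Cuffdiff and the builds mm10 and susScr11, with no role or order. The counting tool, annotation and strand setting are not given in the sources used here. Of 4381 symbols, 1458 had 0 counts in all libraries and 4299 (98.1%) matched porcine RefSeq, all 7 sirtuins among them. Of the matched symbols 91.8% had a curated transcript, against 19.2% of RefSeq's protein-coding symbols, so a gene that is not listed was not measured here.

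Counts were analysed in R 4.3.3 with edgeR 4.0.16. Genes were kept by filterByExpr (minimum count 10, minimum total 15), which left 2387. TMM factors were 0.997 and 1.04 for the controls, against 0.994 and 0.966 under inhibition. The groups' difference was tested with edgeR's quasi-likelihood fit and Benjamini-Hochberg adjustment over all tested genes. The standard error is the size of the log2 fold change divided by the square root of F. The fit was tested on simulated data, in which 200 genes were given a 4-fold change and 187 of them were tested. Of the 187, edgeR's quasi-likelihood test gave 133 (71.1%) an unadjusted and 91 an adjusted p-value under 0.05. Alternatives were RLE scaling, library totals alone, the 10 most abundant genes left out, no filter, at least 10 counts in every library, a replicate block, DESeq2 1.42.0 and each library left out in turn.

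Named are the 7 sirtuins, genes of each list with an unadjusted p-value under 0.05, the 2 most abundant of each list, and the 3 genes nearest to SIRT6 and to SIRT1. Of the genes this rule names, 1 is not reported here. AMH, AREG, FSHR, LHCGR, TNFAIP6, TYROBP and NNMT, listed at 0, and CYP11A1, PTGS2, SERPINE2 and HSD3B1 were named after their values were seen. The members and lists were chosen with earlier results of these data known. A planned order of levels per length and a comparison of the sirtuin proteins were not made, because lengths and protein sequences were not used here.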

Additional observations from a re-analysis of the deposited data

How the results depend on the processing

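The comparison has 2 libraries a group, and the count of genes with an adjusted p-value under 0.05 moved with the setting. The main count of 0 became 43 with no filter on low counts, 2 with at least 10 counts in every library, 37 with DESeq2 and 0 to 77 with each library left out (77 without SIRT6-inhibited library 1, 25 without library 2, 1 without control library 2). The unadjusted count of 216 ranged from 111 to 302, and that of pathway-list genes, 3, from 1 to 8 with each library left out, and was 6 with no filter. With a library left out its group has a single one, which is assumed to vary like the other group's. No sirtuin had an adjusted p-value under 0.05 under any alternative. Log2 fold changes with each library left out ranged from 0.10 to 0.55 for SIRT1, from -1.47 to -1.08 for SIRT2 and from 0.24 to 8.89 for SIRT6, the last against a control at 0 and no bound. Signs turned for SIRT3 (-0.38 to 0.19), SIRT7 (-0.49 to 0.023), SIRT4 (-0.93 to 0.36), TUBA1B (-0.0071 to 0.21), HDAC3 (-0.15 to 0.071), VCAN (-1.50 to 0.37, with 0.13 without control library 2) and GLUD1 (-0.078 to 0.11, with -0.00057 without SIRT6-inhibited library 2), and for GLUD1 with library totals alone (-0.038). Leaving the 10 most abundant genes out of the totals raised every level by construction, to 394 normalized CPM for SIRT1, 6.91 for SIRT2, 106 for SIRT3, 109.8 for SIRT4 and 81.7 for SIRT7. SIRT6 rose to 15.7 and SIRT5 to 1.34 normalized CPM. Other causes were not tested.

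The replicate numbers 1 and 2 are shared by the groups, and nothing says that they mark a shared culture or day. Deviations of libraries with the same number had a correlation of -0.123, so the numbers crossed were added as a replicate block after seeing the data. With the replicate block 6 genes had an adjusted and 176 an unadjusted p-value under 0.05, and 2 and 241 with the numbers crossed, of which 6 were pathway-list genes (2 with the block as numbered). The log2 fold change of SIRT6 was 3.30 with the block, at an edgeR adjusted p of 0.9996, and no sirtuin call changed. GDF9, not past the threshold in the main fit, passed it in both blocked fits.

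Not run were the alternatives for the order per length, which could not be made. At least 10 counts in every library left no value for SIRT2 or SIRT6, and SIRT5 was not tested.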
